A study of Mus musculus with 16 samples.

Results

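The histone genes of the replication-dependent families and of the linker histone family were followed in cultured mouse gingival fibroblasts. They were taken by name, as every row of the count table whose symbol was H2ac, H2bc, H3c, H4c or H1f followed by a number, and 72 of 56941 genes met this rule. They comprised 11 linker histone (H1) genes, 18 H2a genes, 18 H2b genes, 12 H3 genes and 13 H4 genes. In the annotation (GRCm39), 54 of them lay on chromosome 13, 10 on chromosome 3, 3 on chromosome 11, 3 on chromosome 6 and 2 on chromosome 15.

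Histones are the proteins around which DNA is wound. The core histones H2a, H2b, H3 and H4 form the nucleosome, and the linker histone H1 binds the DNA between nucleosomes. Most of their genes are replication-dependent: they are switched on as a cell copies its DNA in S phase, have no introns and give mRNAs that end in a short stem-loop in place of a poly(A) tail. The stem-loop is bound by Slbp and the cut is guided by the U7 small nuclear RNP. Replacement histones such as H1f0 and the H3 variants H3f3a and H3f3b are made outside S phase as well, from ordinary polyadenylated mRNAs. A protocol that primes on poly(A) tails therefore misses most replication-dependent histone mRNA, while a protocol that primes at random does not.

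The cells were primary fibroblasts (mGF, wild type) grown from the gingiva of C57Bl6 mice of 3 to 6 months, kept in 20% serum and used at passages 2 to 8. All were treated for 24 h, with 4 libraries in each of 4 groups: 200 µM BSA vehicle (BSA), vehicle with 1 ng/mL IL-1β (IL-1β), 200 µM BSA-conjugated palmitate (palmitate), and palmitate with IL-1β (palmitate + IL-1β). The comparisons address what a saturated fatty acid and an inflammatory cytokine, alone and together, do to these cells. No source used here says whether the 4 libraries of a group came from separate cultures or animals, so the p-values measure only the spread between these libraries, which may be technical. The GEO labels name a total RNA kit that primes at random, whereas the study's methods describe priming with oligo(dT). Which was used could not be settled from the descriptions.

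The libraries held 21234789 to 92752515 counts on genes, and all but palmitate replicate 10 held at most 35329711. Fibroblast markers (Col1a1, Col1a2, Col3a1, Pdgfra, Pdgfrb, Dcn, Lum, Thy1 and Vim) summed to between 28447 and 33684 CPM (counts per 1000000 counts on genes, with scaled library sizes) in every library. By group the lowest and highest sums were 31565 and 33466 in BSA, 33160 and 33684 with IL-1β, 29212 and 31291 with palmitate, and 28447 and 30433 with both, and the part of this in the histone results was not tested. The summed markers of epithelium stayed at or under 0.727 CPM, of leukocytes at or under 3.27, of endothelium at or under 2.25 and of nerve sheath at or under 2.77. A fold change in such bulk libraries cannot separate fewer cells that make a transcript from less of it in each cell.

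The stem-loop was searched for in the reference genome, since it is the feature that marks a histone mRNA without a poly(A) tail. The motif searched was GG, any 2 bases, CTTTT, any base, AG, any 2 bases and CC, read on the transcribed strand, in the 100 bases after the stop codon. It was found in 63 of the 72 genes: 6 of 11 H1, 17 of 18 H2a, 17 of 18 H2b, 11 of 12 H3 and 12 of 13 H4 genes. Of all 21665 protein-coding genes with an annotated stop codon, 70 (0.323%) held it, and none held it on the opposite strand. The 9 genes without a match were H1f0, H1f7, H1f8, H1f9, H1f10, H2ac22, H2bc21, H3c8 and H4c1. No match says only that these letters are not in that window. The 63 stem-loops took 6 forms, shown 5′ to 3′ with the 4 bases of the loop in capitals.
Form in 41 genes: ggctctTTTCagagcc
Form in 9 genes: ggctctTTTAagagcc
Form in 8 genes: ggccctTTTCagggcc
Form in 2 genes: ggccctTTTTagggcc
Form in 2 genes: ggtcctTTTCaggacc
Form in 1 gene: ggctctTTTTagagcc
The motif left free only the last loop base and the 2 middle bases on each side of the stem. The forms could therefore differ only there, and the other pairs of the stem were set by the search. At the middle bases, which were free, a change on one side was matched on the other. All 6 bases on each side of the loop thus pair in every form.

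A promoter element was also read from the reference. The octamer ATTTGCAT, on either strand, lies upstream of many H2b genes and is bound by Oct-family factors. In RefSeq promoters (GRCm38.p6) it was found in 7 of 14 H2b genes and in 6 of 17 H2a genes, which share divergent promoters with H2b genes at many loci. It was found in 0 of 10 H1, 0 of 10 H3 and 0 of 11 H4 genes, and in 532 of 27025 genes (1.97%) overall. These matches are a description of sequence and not of binding.

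Histone transcripts were a small part of each library. The 72 genes together took 0.0465% to 0.0665% of the counts on genes. Of these genes, 57 had more than 3 counts in every library and 7 in some libraries only. The other 8 (H1f7, H1f8, H2ac1, H2ac18, H2ac24, H2bc1, H2bc27 and H3c14) stayed at 3 counts or fewer throughout, a limit that corresponds to 0.0323 to 0.141 CPM depending on the library. H3c14 had 0 counts in all 16 libraries. H1f7, H1f8, H2ac1 and H2bc1 are known as genes of the germ line, as is H1f6, which reached at most 5 counts.

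Levels were unevenly shared among the genes. H2bc4, H2ac20, H1f0 and H1f2 together made up 38.2% of the summed level, and the first 10 genes 64.3%. Per kb of exon, the highest level was that of H2ac20, at 105 CPM per kb averaged over the 16 libraries, followed by H2ac10 at 46.1, H1f2 at 30.3, H1f5 at 28.5 and H2ac15 at 24.2. The median over all members of a class was 17.0 CPM per kb for H1, 2.72 for H2a, 5.16 for H2b, 3.97 for H3 and 3.93 for H4. The leading H2b genes were H2bc4, H2bc15 and H2bc8, at 17.99, 17.9 and 14.3 CPM per kb. The leading H3 genes were H3c2, H3c6 and H3c3 at 20.0, 11.9 and 11.3, and the leading H4 genes H4c8, H4c12 and H4c18 at 15.9, 9.79 and 8.04.

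**Figure D1:**
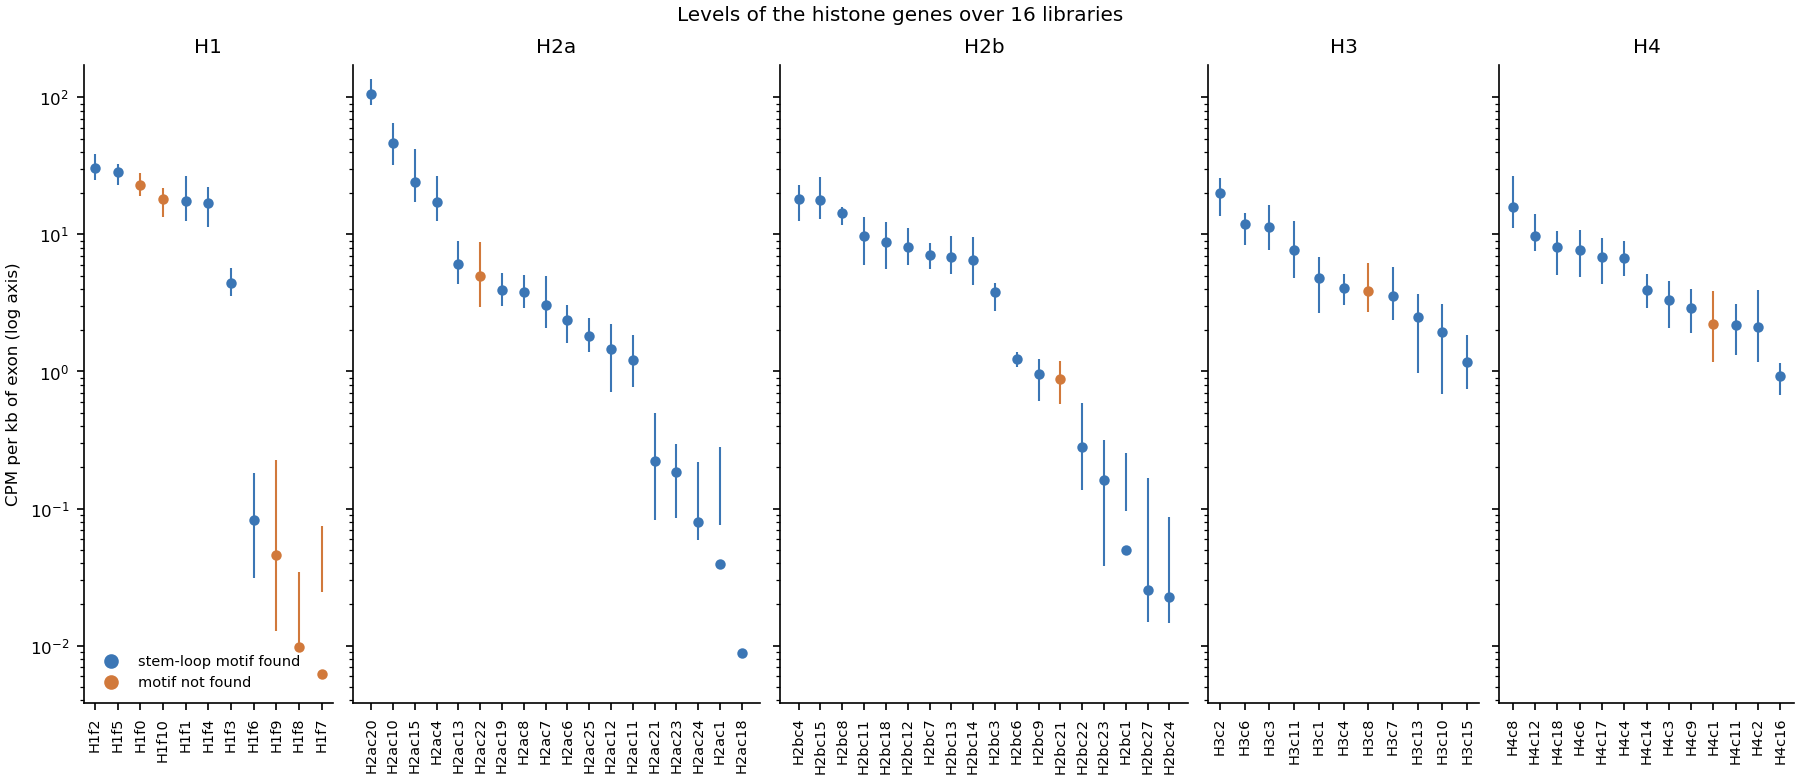
Levels of the histone genes in CPM per kb of exon on a log axis, by class and in order of the mean over 16 libraries (points, libraries at 0 included). Lines span the libraries above 0, colour marks whether the stem-loop motif was found, and H3c14, at 0 throughout, is not drawn. H2ac20 stood highest at 105 CPM per kb.

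The 5 genes ranked highest per kb carried the stem-loop. H2ac20 (chr3:96127677-96128196, minus strand of GRCm39) is a single exon whose annotated transcript ends 57 bases past its stem-loop, and none of its 150-base windows occurs elsewhere in the genome, so its reads could be placed. Its level was 51.7, 54.1, 45.7 and 64.7 CPM in the BSA libraries, 70.5, 62.9, 60.2 and 51.3 with IL-1β, 47.0, 51.1, 52.4 and 54.4 with palmitate, and 50.2, 50.5, 58.8 and 51.6 with both. All 4 groups overlapped, and no comparison called the gene. Its divergent neighbour H2bc21 (chr3:96128435-96131054, plus strand), without a motif match, was at 2.29 CPM on average, or 0.876 CPM per kb.

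The annotated ends of the transcripts divided the members further. In 36 of the 63 genes with a stem-loop every annotated transcript stopped before or within 100 bases after it, and these 36 genes summed to 208 CPM, with a median of 6.94 CPM per kb. In the other 27 some annotated transcript ran farther, by 4884 bases in H1f3 and by 2445 in H4c16. In H2bc4 an annotated transcript ended 9518 bases of genome past the stem-loop. The versioned identifier of H2bc4 also differs from that of the counts, so its level per kb is uncertain. Those 27 genes summed to 251 CPM with a median of 2.93 CPM per kb, over exon lengths that include the extensions. The 9 genes without a motif match summed to 77.4 CPM, most of it from H1f0 and H1f10. In 16 genes the annotated transcript stopped before the last base of the stem-loop, so the end of the mRNA lay outside the annotated exon. Gene counts do not show where an RNA ends. Within a gene, stem-loop mRNA and polyadenylated forms cannot be told apart here.

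Other RNAs without a poly(A) tail were read beside the histone genes. Rn7sk, the small nuclear RNA that holds back elongation of RNA polymerase II, had 4862 to 20667 counts in every library and a mean of 793 CPM per kb, 190 to 424 CPM. Rny3, a Y RNA, was at 168 CPM per kb, Rn7s2 and Rn7s1, RNAs of the signal recognition particle, at 71.05 and 6.76, and Scarna2, a small Cajal body RNA, at 34.0. Rpph1, the RNA of ribonuclease P, was at 3.78 CPM per kb, Rny1 at 3.13, Vaultrc5, a vault RNA, at 1.78, and the minor spliceosomal RNAs Rnu11 and Rnu12 at 0.833 and 0.395. Rmrp and Terc were at 0 in every library, but each is listed under 2 overlapping identifiers on the same strand, and the counting left reads on overlapping genes unassigned. Per kb, Rn7sk and Rny3 thus stood above every histone gene and Rn7s2 above all but H2ac20. Rpph1, Rny1 and Vaultrc5 stood below the medians of H2b, H3 and H4. Rny3, Rny1, Rnu11 and Vaultrc5 are annotated with 102, 112, 134 and 143 bases, shorter than a 150-base read. Their levels per kb are therefore uncertain beside those of the histone genes. Sequence shared with other places of the genome was not searched for in these RNAs, Rn7s1 and Rn7s2 included. No library of these cells made with a known selection on poly(A) was analysed here, so the share of histone mRNA that was captured could not be measured.

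**Figure D2:**
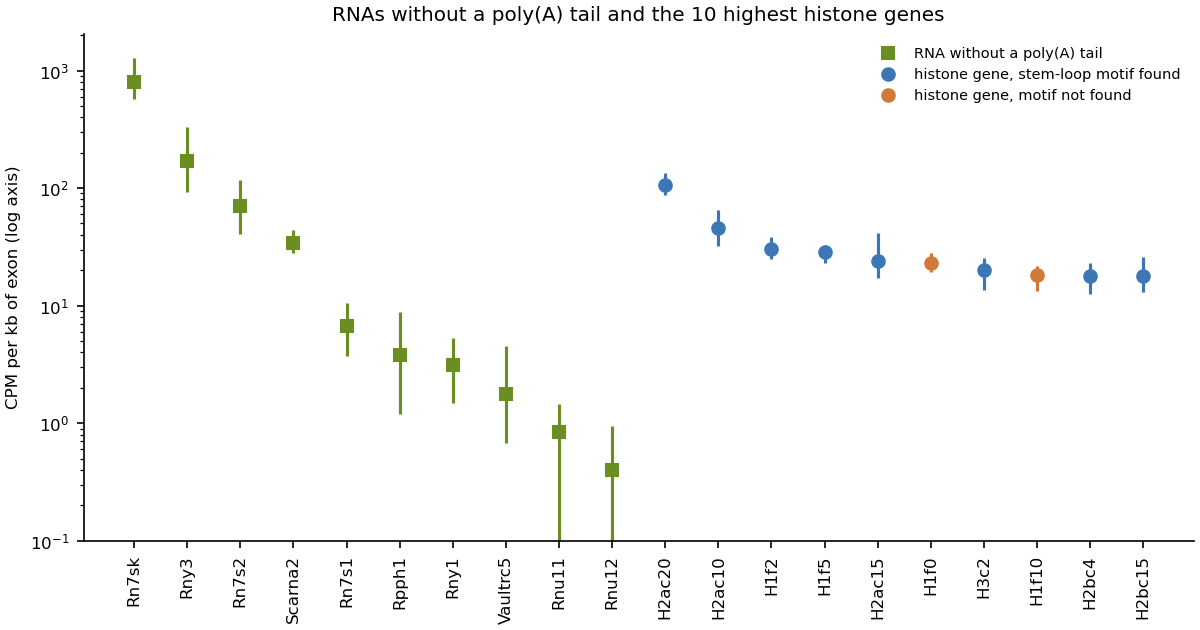
CPM per kb of exon on a log axis for 10 RNAs without a poly(A) tail (squares) and the 10 histone genes with the highest level (circles). Points are means over 16 libraries and lines span the lowest to the highest library, cut at the foot of the axis where a library was at 0. Rn7sk stood highest at 793 CPM per kb, above H2ac20 at 105.

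Near-identical copies limited what could be counted for some members, since only reads with 1 best place were counted. In 20 of the 72 genes at least 50% of the 150-base windows of exon occur in several places of the genome, among them H2ac10 (58.4%), H3c10 (90.5%), H3c11 (52.7%), H3c13 (73.7%), H3c15 (59.4%), H4c12 (53.4%) and H4c18 (87.2%). H2ac18 and H2ac19 are copies of each other, with 95.4% and 100% of windows shared. H2ac18 had at most 2 counts whereas H2ac19 had 41 to 156, so how reads fell between the pair is uncertain. In all, 22 genes were free of such windows, among them all H1 genes, H2ac15, H2ac20, H2ac25, H2bc21 and H4c14. Reads that fit several copies equally well were not counted for any of them.

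Of the 72 genes, 58 passed the filter on low counts and were tested in each comparison. Summed by class and relative to BSA, the groups with palmitate differed most for H3. The 12 H3 genes summed to 57.5, 53.3, 56.1 and 60.0 CPM in the BSA libraries, 64.3, 63.8, 64.3 and 55.7 with IL-1β, 44.5, 47.4, 46.9 and 47.4 with palmitate, and 43.0, 46.8, 51.4 and 36.4 with both. Every library with palmitate lay below every library without it. The mean with palmitate was 0.821 of that of BSA, and 0.783 with both agents. These sums describe genes chosen with earlier results known and were given no test.

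The other classes showed smaller shifts of the sum. H1 summed to 225 ± 13.4 CPM (SD, n = 4) in BSA, 235 ± 23.97 with IL-1β, 201 ± 8.12 with palmitate and 206 ± 18.1 with both. H4 summed to 47.6 ± 6.19, 49.8 ± 7.52, 41.7 ± 3.09 and 42.8 ± 4.72 CPM in the same order. H2a (110 ± 14.5, 124 ± 20.2, 107 ± 6.26 and 110 ± 9.45 CPM) and H2b (109 ± 12.9, 110 ± 21.1, 106 ± 3.53 and 113 ± 12.0 CPM) differed between groups by less than the spread among libraries. The spread was widest with IL-1β, where the sum of all 72 genes was 669, 600, 562 and 489 CPM in replicates 5 to 8. The same libraries had 4.26%, 3.96%, 3.82% and 3.42% of read pairs aligned to several places, and the part of this in the sums was not tested.

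**Figure D3:**
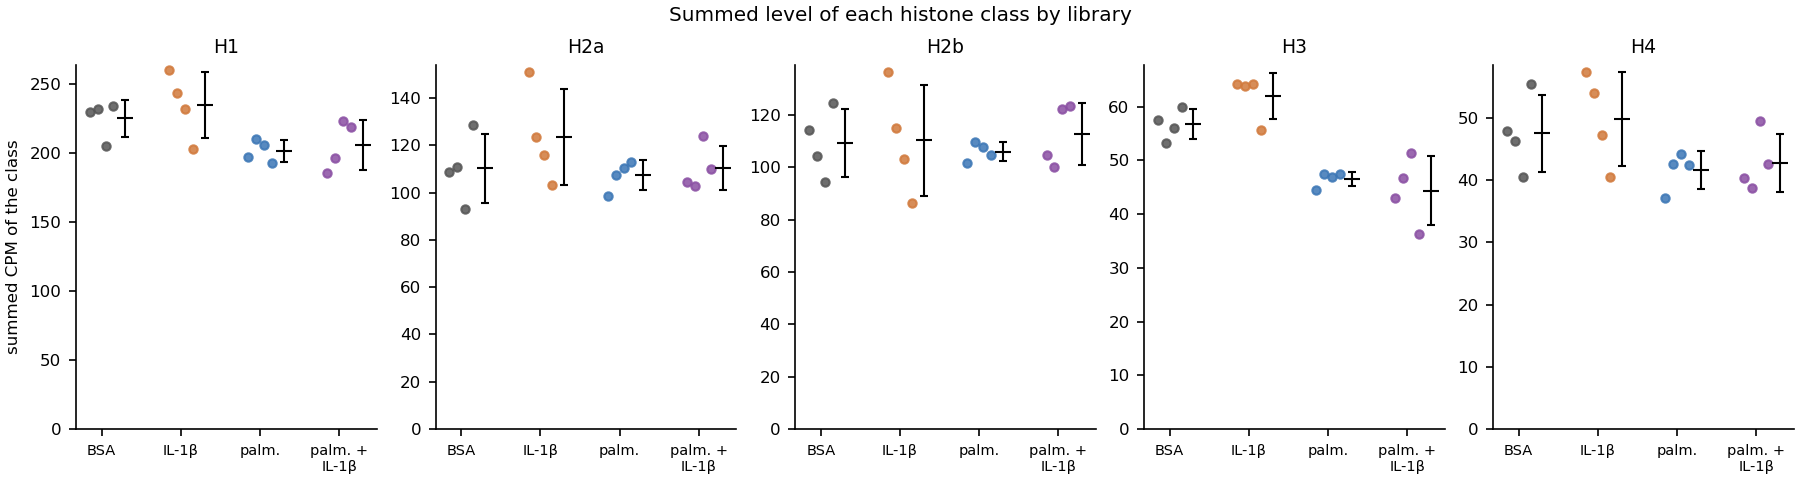
Summed CPM of the genes of each class by library, with 4 libraries per group as points and the mean ± SD as a bar beside them; every axis starts at 0. The H3 sums of the 8 libraries with palmitate (36.4 to 51.4 CPM) lie below those of the 8 without (53.3 to 64.3 CPM).

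Palmitate alone was compared with BSA first. Of the 58 histone genes, 11 were called (edgeR quasi-likelihood test, Benjamini-Hochberg adjusted p under 0.05), and all 11 were lower. Of all 16306 genes tested, 37.3% were called, 17.5% as lower and 19.8% as higher. The share of histone genes called, 19.0%, was thus under that of genes at large in either direction. It was near the share of all genes called lower. Under upper-quartile scaling 14 histone genes were called, all lower, beside 6466 of all 16306 genes called, 2402 of them higher. The share of all calls that were higher was then 37.1%, against 53.1%. The 58 genes had a median log2 fold change of -0.11, beside -0.003 over all genes tested. By class, 4 of 7 H1 genes, 2 of 13 H2a, 1 of 14 H2b, 3 of 11 H3 and 1 of 13 H4 genes were called lower.

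The linker histone genes that fell with palmitate were H1f0, H1f1, H1f2 and H1f3. H1f0, the replacement linker histone of resting and differentiated cells, was at 54.3, 57.6, 54.2 and 56.1 CPM in BSA and at 43.1, 45.0, 40.5 and 40.8 with palmitate, with no overlap (log2 fold change -0.39, SE 0.05, adjusted p 2.74e-07). H1f1, a replication-dependent linker histone, was at 14.3, 15.7, 13.3 and 13.0 CPM in BSA and at 10.0, 10.1, 11.3 and 11.7 with palmitate, again without overlap (log2 fold change -0.40, SE 0.11, adjusted p 0.00602). H1f2 and H1f3 fell by 0.24 and 0.26 on the log2 scale (adjusted p 0.00886 and 0.00728). So the 4 called genes included both replication-dependent and replacement linker histones.

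The remaining H1 genes did not pass the test. H1f5 had a log2 fold change of 0.01 with a 95% interval of -0.16 to 0.17, H1f4 of 0.19 (-0.13 to 0.52), and H1f10, a replication-independent linker histone, of 0.12 (-0.08 to 0.32). H1f10 was at 25.8, 19.7, 18.7 and 25.5 CPM in BSA, 22.1, 16.2, 20.2 and 17.5 with IL-1β, 23.8, 23.0, 26.3 and 24.8 with palmitate, and 23.7, 21.7, 21.6 and 23.4 with both. It was the 1 histone gene called higher in palmitate than in IL-1β libraries (log2 fold change 0.36, SE 0.10, adjusted p 0.0125).

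The H3 genes called with palmitate were H3c1, H3c2 and H3c4, which encode canonical H3 proteins. H3c4 was at 9.46, 8.91, 8.84 and 9.32 CPM in BSA and at 7.23, 6.18, 6.64 and 6.65 with palmitate, without overlap (log2 fold change -0.47, SE 0.09, adjusted p 0.000113). H3c2, the H3 gene with the highest level per kb, was at 13.4, 12.2, 15.9 and 13.9 CPM in BSA and at 10.6, 11.9, 11.1 and 10.1 with palmitate, again without overlap (log2 fold change -0.32, SE 0.09, adjusted p 0.00394). H3c1 fell by 0.43 (SE 0.16, adjusted p 0.0303). H3c1 lost its call when any of 5 single libraries was left out, BSA replicates 2 and 3 and palmitate replicates 9, 10 and 11, with adjusted p up to 0.0791.

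Among the other core histones, H2ac7, H2ac25, H2bc11 and H4c16 were called lower. H2ac25 and H4c16 lie outside the main clusters, on chromosomes 11 and 6, and have annotated transcripts that run 1643 and 2445 bases past the stem-loop. H2ac25 was at 5.26, 4.68, 4.08 and 4.58 CPM in BSA and at 2.96, 3.73, 3.67 and 3.78 with palmitate (log2 fold change -0.38, SE 0.11, adjusted p 0.00773). H4c16 fell by 0.49 (SE 0.16, adjusted p 0.0145), H2ac7 by 0.63 (SE 0.19, adjusted p 0.00964) and H2bc11 by 0.43 (SE 0.13, adjusted p 0.0102). Leaving out 1 library ended the call of H2ac7 (BSA replicate 3, adjusted p 0.0585), of H2bc11 (palmitate replicate 11, adjusted p 0.0586) and of H4c16 (palmitate replicate 10, adjusted p 0.0505). The most abundant core histone genes were not called: the log2 fold change of H2ac20 was -0.08 (95% interval -0.28 to 0.13), of H2bc4 -0.02 (-0.37 to 0.33) and of H2ac10 0.19 (-0.15 to 0.53).

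IL-1β alone changed few histone genes. Against BSA, 2 of 58 were called, both higher, beside 15.1% of all genes tested (10.1% as higher and 4.97% as lower). H3c11 was at 3.08, 2.87, 3.13 and 3.04 CPM in BSA and at 4.58, 5.15, 4.05 and 3.10 with IL-1β (log2 fold change 0.48, SE 0.15, adjusted p 0.0243). H3c3 was at 6.62, 6.84, 6.52 and 7.86 CPM in BSA and at 8.14, 9.29, 10.3 and 7.91 with IL-1β (log2 fold change 0.36, SE 0.12, adjusted p 0.0375). For both genes the 1 IL-1β library closest to BSA was replicate 8, which for H3c11 lay within the range of BSA. Neither call was stable: H3c11 lost it without BSA replicate 1 or 2 or IL-1β replicate 5 or 6, and H3c3 under upper-quartile scaling or without BSA replicate 1, 2 or 3 or IL-1β replicate 6 or 7. The count was 0 without BSA replicate 1 or 2, 1 without IL-1β replicate 6 or 7, and 5 without IL-1β replicate 8. Over the 58 genes the median log2 fold change was 0.08, and 20 were below 0.

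With both agents, 13 of 58 histone genes were called against BSA, all 13 lower, beside 47.3% of all genes (22.5% as lower). They were H1f0, H1f1, H1f2 and H1f3, 5 H3 genes (H3c1, H3c2, H3c4, H3c7 and H3c15), and H2ac25, H2bc11, H2bc21 and H4c9. H1f0 was at 39.3, 39.6, 40.6 and 43.8 CPM with both agents, below every BSA library (log2 fold change -0.45, SE 0.05, adjusted p 1.46e-08). H3c4 was at 6.45, 5.85, 5.69 and 6.40 CPM, also below every BSA library (log2 fold change -0.58, SE 0.09, adjusted p 4.15e-06). H3c2 fell by 0.44 (SE 0.09, adjusted p 0.000130) and H3c1 by 0.62 (SE 0.16, adjusted p 0.00198). All 11 tested H3 genes had a log2 fold change below 0, with a median of -0.44. The medians of H1, H4, H2a and H2b were -0.18, -0.16, 0.05 and 0.01.

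Of these 13 genes, 6 (H1f0, H2ac25, H2bc11, H3c1, H3c2 and H3c4) were called under each of the 21 alternative analyses. H1f1, H1f2 and H1f3 fell by 0.28, 0.18 and 0.19 (adjusted p 0.0395, 0.0425 and 0.0404). H2bc21, H3c7, H3c15 and H4c9 fell by 0.46, 0.35, 0.65 and 0.46 (adjusted p 0.0396, 0.0396, 0.0342 and 0.0492). Each of these 7 lost its call on leaving out 1 library in at least 4 ways. H4c9, closest to the threshold, lost it in 12. Without BSA replicate 4 the count of genes called was 7, and without palmitate + IL-1β replicate 16 it was 8.

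Adding palmitate to IL-1β was the comparison with the most H3 genes. Of 58 histone genes, 15 were called lower in palmitate + IL-1β than in IL-1β libraries and 0 higher, beside 35% of all genes (16.1% as lower). The 15 included 9 of 11 H3 genes, 4 of 7 H1 genes, 2 of 14 H2b genes, and 0 of 13 H2a and 0 of 13 H4 genes. Of the H4 genes, 12 of 13 still had a log2 fold change below 0, with a median of -0.25. Of the H2a genes 10 of 13 did, with a median of -0.05. H3c11 was at 2.43, 2.31, 3.15 and 1.99 CPM with both agents against 4.58, 5.15, 4.05 and 3.10 with IL-1β (log2 fold change -0.77, SE 0.15, adjusted p 0.000135). H3c7 was at 3.14, 4.10, 4.53 and 3.09 CPM against 7.28, 4.88, 5.85 and 5.38, without overlap (log2 fold change -0.65, SE 0.14, adjusted p 0.000334).

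The other H3 genes called in that comparison were spread over a range of levels. H3c2, at 9.54, 11.4, 11.4 and 8.39 CPM with both agents, lay below all 4 IL-1β libraries, at 13.8, 14.7, 14.9 and 14.8 (log2 fold change -0.52, SE 0.09, adjusted p 2.49e-05). H3c1, H3c3, H3c4 and H3c8 fell by 0.73, 0.45, 0.41 and 0.58 (adjusted p 0.000623, 0.00372, 0.00105 and 0.0165). H3c10 and H3c13, both under 2 CPM in every library and mostly of shared sequence, fell by 0.90 and 0.70 (adjusted p 0.0157 and 0.0408). The other H3 genes tested, not called, were H3c6 (log2 fold change -0.24, 95% interval -0.45 to -0.03, adjusted p 0.0812) and H3c15 (-0.16, -0.70 to 0.37). The median log2 fold change of the 11 genes was -0.58, beside 0.01 over all genes tested. H1f0, H1f1, H1f2 and H1f3 fell by 0.31, 0.46, 0.32 and 0.36, and H2bc11 and H2bc21 by 0.52 and 0.48. Of the 11 genes called for palmitate against BSA and the 15 called here, 8 were called in both. They were H1f0, H1f1, H1f2, H1f3, H2bc11, H3c1, H3c2 and H3c4. The 2 comparisons share no library but came from the same fitted model, with a shared estimate of the spread. Of all genes tested, 17.5% and 16.1% were called lower in them, and the number called lower in both was not counted.

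**Figure D4:**
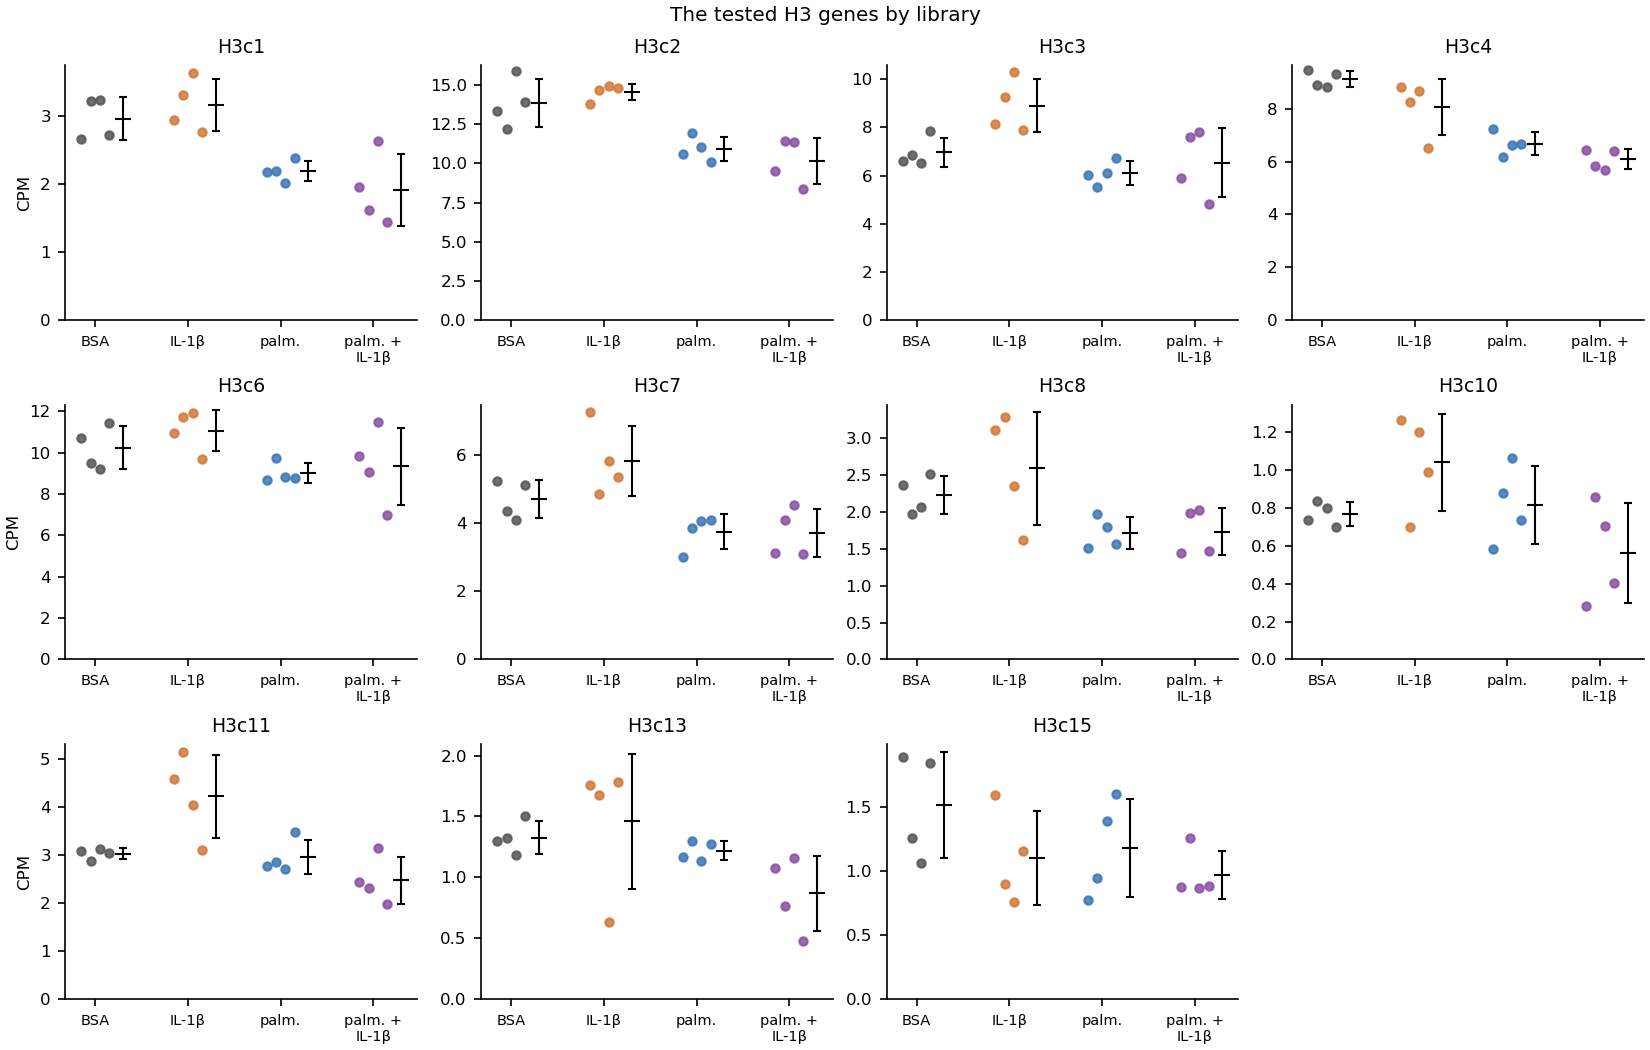
CPM of the 11 tested H3 genes by library, with 4 libraries per group as points and the mean ± SD as a bar beside them; every axis starts at 0. H3c1, H3c2, H3c3, H3c4 and H3c7 show every palmitate + IL-1β library below every IL-1β library. The share of all genes separated in this way was not counted.

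Palmitate set against IL-1β called 18 histone genes beside 31.6% of all genes, 17 lower and 1 (H1f10) higher. The 17 comprised H1f0, H1f1, H1f2 and H1f3, 8 of 11 H3 genes, H2ac4, H2bc11, H4c11, H4c12 and H4c14. H3c3 was the H3 gene with the lowest adjusted p (log2 fold change -0.57, SE 0.12, adjusted p 0.000438). The H4 genes H4c11, H4c12 and H4c14 fell by 0.60, 0.53 and 0.37 (adjusted p 0.0164, 0.0110 and 0.0197). H2ac4 fell by 0.41 (adjusted p 0.0370) and H3c6 by 0.29 (adjusted p 0.0410). This comparison shares its libraries with the others, so its list is no independent count.

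Adding IL-1β to palmitate called 0 of 58 histone genes, and 0 had an unadjusted p under 0.05, beside 9.81% of all genes called (5.71% as higher and 4.1% as lower). DESeq2 also called 0. The interaction of the 2 agents, which asks whether the effect of both differs from the sum of each, called 0 histone genes beside 1.99% of all genes (0.159% above 0 and 1.83% below), with 3 at an unadjusted p under 0.05. The gene with the lowest p was H3c11, which had a log2 interaction of -0.73 (SE 0.21, 95% interval -1.14 to -0.31, adjusted p 0.0775), and DESeq2 called this gene alone. The effect of palmitate on H3 genes was therefore not shown to differ between libraries with and without IL-1β.

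**Figure D5:**
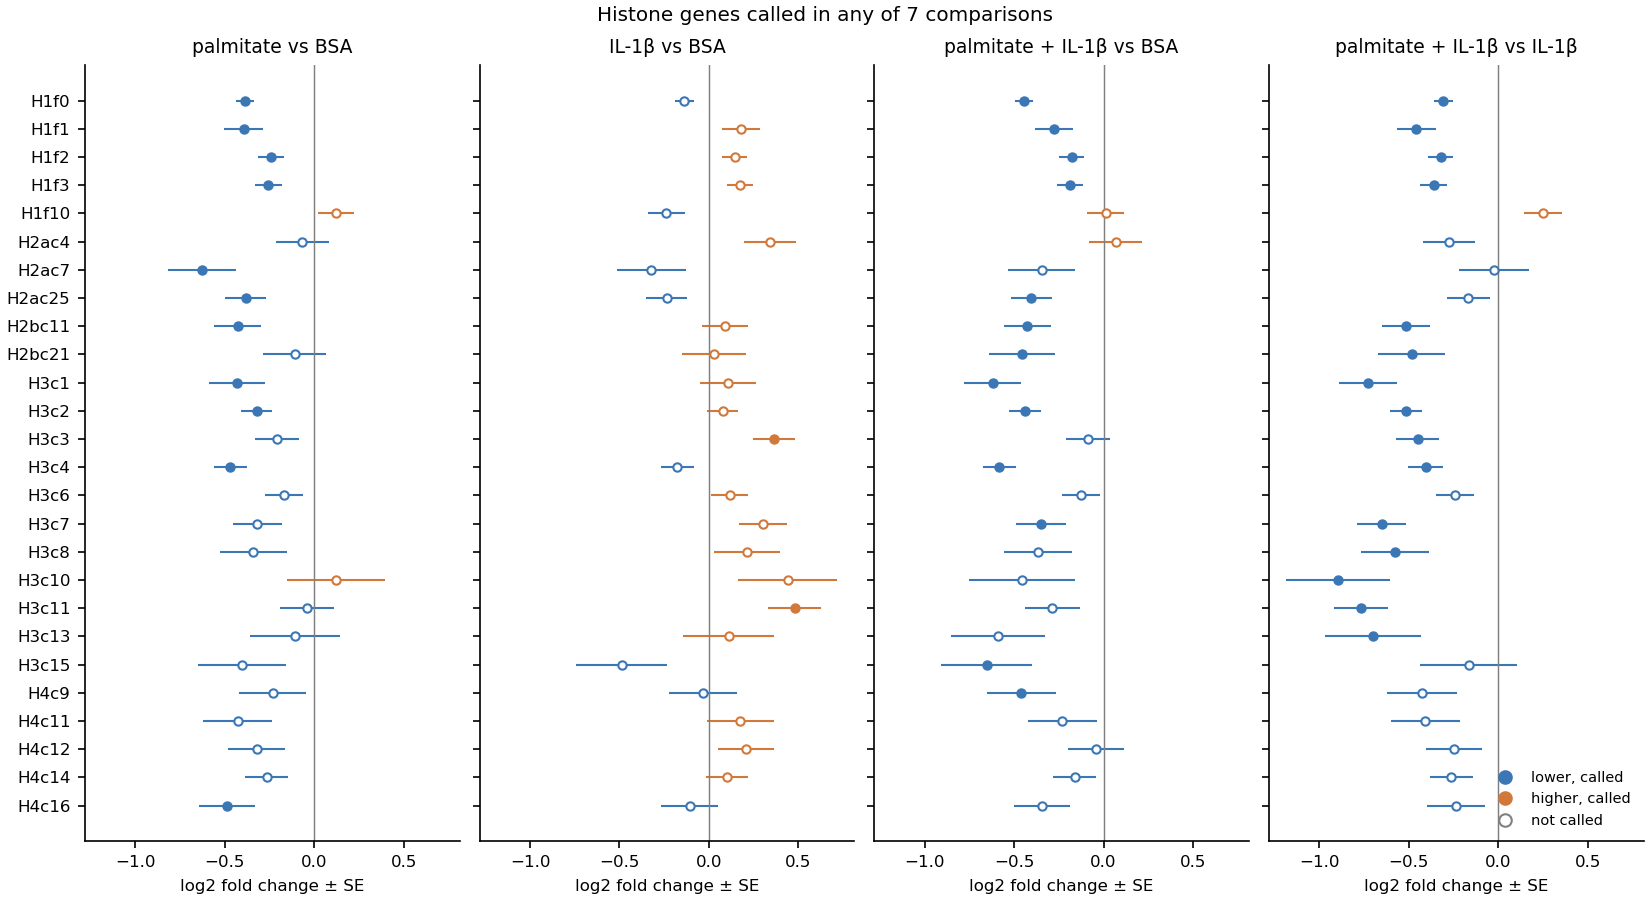
Log2 fold change ± SE of the 26 histone genes called in any of the 7 comparisons, in 4 of them. Filled points passed an adjusted p under 0.05 (edgeR), open points did not, and colour gives the direction. H1f0, H3c2 and H3c4 lie below 0 with filled points in all 3 panels with palmitate.

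Genes with and without the stem-loop were among those called. Against BSA, palmitate called 10 of 52 tested genes with the motif and 1 of 6 without, and palmitate + IL-1β called 11 of 52 and 2 of 6, beside 37.3% and 47.3% of all genes tested. Among genes whose transcripts ended at the stem-loop, palmitate called 5 of 30, with a median log2 fold change of -0.05, and among those with an annotated extension 5 of 22, with a median of -0.24. Where at least 50% of the windows were shared sequence, 1 of 16 tested genes was called with palmitate. These groups share genes with the calls above and were given no test.

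The replacement histone variants were read from a fixed list of 9 genes, and how the mRNA of each ends was not examined. With palmitate, 4 were called lower and 1 higher, beside 17.5% of all genes called lower and 19.8% called higher. The counts were the same with both agents, beside 22.5% and 24.8% of all genes, and with IL-1β 2 were called lower, beside 4.97%. Macroh2a2, a variant of condensed chromatin, had the largest change, from 27.6 ± 1.06 CPM in BSA to 24.3 ± 1.91 with IL-1β, 18.9 ± 1.75 with palmitate and 16.6 ± 0.671 with both (SD, n = 4 each). Its log2 fold change was -0.56 with palmitate (SE 0.06, adjusted p 1.94e-08) and -0.74 with both (SE 0.07, adjusted p 3.95e-11). Its relative Macroh2a1 was the 1 gene of the list called higher, by 0.17 with palmitate and 0.14 with both, and it lost both calls under upper-quartile scaling.

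H3f3a and H3f3b, which encode the H3 variant made outside S phase, were called lower with palmitate, by 0.15 and 0.13 on the log2 scale (adjusted p 0.0486 and 0.0182), where DESeq2 did not call H3f3a, and with both agents, by 0.25 and 0.24 (adjusted p 0.000716 and 4.02e-05). H2az1, the H2a variant of promoters, fell by 0.12 with palmitate and 0.21 with both. Cenpa, H2ax, H2aj and H2az2 were not called with palmitate, with log2 fold changes of 0.19, -0.03, -0.05 and -0.14, nor with both (0.06, -0.24, 0.01 and -0.17). Under upper-quartile scaling H2ax and H2az2 were called lower with both, which made 6 of 9, and Macroh2a1 was called lower with IL-1β, which made 3. H2az2 and Macroh2a2 were the genes called lower with IL-1β, by 0.32 and 0.19. Per kb of exon, pooled over all annotated transcripts, H3f3b and H3f3a stood at 56.3 and 26.5 CPM per kb, above H3c2 at 20.0, the highest H3c gene.

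The factors that process histone mRNA were read from a list of 15 genes. With palmitate 8 were called higher and 0 lower, beside 19.8% of all genes called higher and 17.5% called lower. With both agents 9 were called higher and 0 lower, beside 24.8% and 22.5%, and with IL-1β 2 higher and 0 lower, beside 10.1% and 4.97%. The median log2 fold change of the 15 was 0.18, 0.17 and 0.10 in these comparisons. Slbp, which binds the stem-loop itself, was not called in any of the 3, with log2 fold changes of 0.07, -0.08 and -0.03. Of the U7 particle, Lsm10 and Lsm11 were not called (-0.11 and 0.06 with palmitate, -0.24 and 0.17 with both, 0.03 and 0.17 with IL-1β), nor was Zfp473 (-0.52, -0.29 and -0.25), which was under 2 CPM.

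Cpsf2, of the cleavage complex, rose by 0.32 with palmitate and 0.35 with both (adjusted p 1.43e-07 and 1.74e-08), and Cpsf3, the nuclease of that complex, by 0.18 and 0.17. Cstf2 rose by 0.26 and 0.32, Eri1, an exonuclease that trims histone mRNA, by 0.26 and 0.37, Ncbp1 by 0.11 and 0.14, and Gon4l by 0.19 and 0.24. Srrt rose with both agents, by 0.31, and its value with palmitate was 0.19 (adjusted p 0.104). Npat, the coactivator of histone genes in S phase, rose by 0.19 with palmitate, 0.25 with IL-1β and 0.14 with both, and Casp8ap2, its partner in histone locus bodies, by 0.20, 0.18 and 0.25. Ncbp2 and Sympk were not called in these 3 comparisons. Most of these factors also act on other mRNAs. Under upper-quartile scaling 6 were called higher with palmitate, without Ncbp1 and Gon4l, and 6 with both, without Ncbp1, Npat and Cpsf3, while Lsm10 was called lower with both. With IL-1β that scaling called Npat and not Casp8ap2. DESeq2 called 7 higher with palmitate, without Ncbp1, 9 with both, and 3 with IL-1β, Cpsf2 being the third.

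Histone chaperones, which carry histones to and from DNA, formed a list of 18 genes. With palmitate 8 were called higher and 1 lower, beside 19.8% of all genes called higher and 17.5% called lower. With IL-1β 1 was called higher, beside 10.1%, and with both agents 10 higher and 2 lower, beside 24.8% and 22.5%. The 3 with the largest change under palmitate were Nasp, the chaperone of H1 and of H3 with H4, up by 0.40, Daxx, a chaperone of H3.3, up by 0.30, and Supt16, of the FACT complex, up by 0.29. Nasp, Daxx and Supt16 also led with both agents, up by 0.37, 0.37 and 0.36. With IL-1β the 1 called was Cabin1, up by 0.16. Under upper-quartile scaling the counts were 4 higher and 2 lower with palmitate, 0 higher and 1 lower with IL-1β, without Cabin1, and 7 higher and 3 lower with both. Nasp was at 27.5 ± 1.30 CPM in BSA, 27.9 ± 2.91 with IL-1β, 36.1 ± 2.69 with palmitate and 35.6 ± 4.39 with both (SD, n = 4 each).

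S-phase and mitotic genes were read since replication-dependent histones are made in S phase. Of 44 S-phase genes, 9 were called higher and 3 lower with palmitate, 8 higher with IL-1β, and 5 higher and 10 lower with both agents, with medians of 0.04, 0.10 and -0.03 beside -0.003, -0.005 and 0.002 over all genes. The largest called changes were in Tyms (0.40), Rfc2 (-0.40) and Fen1 (0.30) with palmitate, in Atad2 (0.33), Hells (0.33) and Uhrf1 (0.32) with IL-1β, and in Rrm2 (-0.51), Tyms (0.46) and Rfc2 (-0.42) with both. Of 31 mitotic genes, 6 were called higher and 1 lower with palmitate, 6 higher with IL-1β, and 2 higher and 9 lower with both, with medians of -0.002, 0.04 and -0.12. Cenpf, Cenpe and Mki67 led with palmitate (0.47, 0.39 and 0.35), Mki67, Cenpe and Kif11 with IL-1β (0.43, 0.37 and 0.22), and Ccnb2, Ube2c and Mki67 with both (-0.57, -0.53 and 0.35). Over all genes 19.8% were called higher and 17.5% lower with palmitate, 10.1% and 4.97% with IL-1β, and 24.8% and 22.5% with both. The shares of S-phase and mitotic genes called higher with palmitate were thus near that of genes at large. The shares called lower with palmitate, 3 of 44 and 1 of 31, were under the 17.5% of all genes. Under upper-quartile scaling 5 S-phase genes were called higher and 4 lower with palmitate, and 3 mitotic genes higher and 3 lower, without Fen1 and Mki67. With both agents that scaling called 4 S-phase genes higher and 16 lower, and 1 mitotic gene higher and 16 lower. Of all 16306 genes it called 6466 with palmitate, 2402 of them higher, and 8053 with both, 3115 of them higher. In palmitate + IL-1β against IL-1β libraries, 1 S-phase gene was called higher and 14 lower, and 0 mitotic genes higher and 11 lower. All genes were called higher there at 18.9% and lower at 16.1%. In palmitate against IL-1β libraries, 1 S-phase gene was called higher and 12 lower, and 0 mitotic genes higher and 2 lower. The shares of all genes there were 16.5% and 15.2%. Whether the share of cells in S phase bears on the histone levels was not tested.

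Of the 14 entries for RNAs without a poly(A) tail, 7 were tested. Rny3 rose with palmitate, from 13.4 ± 3.29 to 24.7 ± 6.87 CPM (SD, n = 4, log2 fold change 0.88, SE 0.26, adjusted p 0.0167), and Scarna2 fell with palmitate, IL-1β and both, by 0.20, 0.28 and 0.20. Rny3 was not called with IL-1β or both agents (-0.34 and 0.58). Rn7sk, Rn7s1, Rn7s2, Rny1 and Rpph1 were not called in these 3 comparisons. Rn7sk was at 284 ± 39.5 CPM in BSA, 295 ± 88.0 with IL-1β, 254 ± 31.3 with palmitate and 217 ± 28.4 with both. With palmitate 1 of the 7 was thus called higher and 1 lower, beside 19.8% and 17.5% of all genes. The part of these RNAs in the histone results was not tested.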

How the data were processed

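RNA-seq was analysed in 16 libraries of mouse gingival fibroblasts, 4 per group by their labels. The deposited values are raw read counts per gene, made by the authors with Trimmomatic 0.39, STAR 2.7.10a and HTSeq 2.0.9 (counting by strand) on GRCm39 with GENCODE vM33. Rows without a gene (18.3% to 21.4% of read pairs) were left out. Palmitate replicate 10 was the deepest library, and low counts in the others (3 counts equal 0.0849 CPM or more) limit precision there. Floors of 3 counts cover counting error only, whereas intervals of fold changes come from the fitted model and include the spread between libraries.

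Counts of all genes were filtered (filterByExpr), scaled (TMM) and fitted in edgeR 4.0.16 (R 4.3.3) as 1 quasi-likelihood model with a mean per group, with Benjamini-Hochberg adjustment over 16306 genes and a threshold of 0.05. CPM used TMM-scaled library sizes. Exon lengths, stem-loops and shared 150-base windows came from GRCm39 with GENCODE vM39, in which 63 of the 72 genes kept their versioned identifier and the other 9 may have other exon lengths. Promoters came from RefSeq. The model, tested on simulated counts, was rerun with upper-quartile scaling, DESeq2 1.42.0, other filters, only the groups compared, and each library left out.

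Genes named were those called in any of 7 comparisons, the 3 highest per class in CPM per kb, H1f0 and H1f10, and of the other lists either every gene or the 3 with the largest called change. The members and lists were chosen with earlier results of these data known.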

Additional observations from a re-analysis of the deposited data

Results flagged for a closer look

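Within groups of 4 libraries, 12 of 164 sets of values (35 named genes and 6 sums, in 4 groups) held 1 library set apart from the other 3 by Dixon's criterion at 95%. Chance flags about 1 in 20 such sets.

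Among the sums, H1 in BSA replicate 3 was 205 CPM against 230 to 234 in the other 3 libraries, and H3 in IL-1β replicate 8 was 55.7 CPM against 63.8 to 64.3. Among H1 genes, H1f2 in palmitate replicate 12 was 39.2 CPM against 42.2 to 42.6. Among H2a and H2b genes, H2ac20 in palmitate + IL-1β replicate 15 was 58.8 CPM against 50.2 to 51.6, H2ac25 in palmitate replicate 9 was 2.96 against 3.67 to 3.78, and H2bc11 in BSA replicate 2 was 4.29 against 5.34 to 5.44.

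Among H3 genes, H3c6 in palmitate replicate 10 was 9.75 CPM against 8.69 to 8.81, H3c13 in IL-1β replicate 7 was 0.633 against 1.68 to 1.78, and H3c15 in palmitate + IL-1β replicate 14 was 1.26 against 0.867 to 0.883. Among H4 genes, H4c9 in IL-1β replicate 8 was 1.45 CPM against 2.49 to 2.69, H4c12 in palmitate replicate 10 was 2.35 against 2.57 to 2.59, and H4c18 in palmitate replicate 9 was 2.18 against 3.53 to 3.63.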

How the results depend on the processing

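No paired analysis was possible because the libraries are numbered 1 to 16 and no number is shared between groups. Leaving out 1 library at a time, the number of histone genes called ranged from 9 to 12 for palmitate against BSA, 0 to 5 for IL-1β against BSA, 7 to 15 for palmitate + IL-1β against BSA, 12 to 20 against IL-1β, 12 to 20 for palmitate against IL-1β, 0 to 0 for palmitate + IL-1β against palmitate, and 0 to 1 for the interaction. With no filter on low counts, 71 histone genes were tested and the IL-1β count rose from 2 to 4. The interaction count was 1 under DESeq2 and 1 with no filter, H3c11 in both cases. No called gene changed sign under these alternatives against BSA, and 7 of 11 palmitate calls, 0 of 2 IL-1β calls and 6 of 13 calls of both agents were kept under all 21.

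Upper-quartile scaling moved the median log2 fold change of all genes by under 0.1, to -0.07 for palmitate and -0.08 for both agents. The share of calls that were higher went from 53.1% to 37.1% for palmitate, 67.1% to 43.5% for IL-1β and 52.4% to 38.7% for both. The histone genes called were then 14, all lower, for palmitate, 2 for IL-1β, 1 higher and 1 lower, and 18, all lower, for both. Of all 16306 genes that scaling called 6466 for palmitate, 2402 of them higher. For IL-1β it called 2743, 1192 of them higher, and for both 8053, 3115 of them higher. The upper-quartile counts of the other lists stand beside these counts of all genes. Class sums moved by less than 1 SD under both other scalings. Genes under about 1 CPM are limited by depth.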
